A study of Mus musculus with 8 samples.

Results

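The cytosolic ribosomal proteins were followed here in mouse hypocretin neurons, the arousal-promoting cells of the lateral hypothalamus. Members were the array probe sets whose only gene symbol in the platform annotation is that of a cytosolic ribosomal protein (Rpl or Rps with a number, Rpl22l1, Rplp0 to Rplp2, or Rpsa). This rule gave 101 of 45101 probe sets, or 47 of the 18194 genes with a probe set of their own, of which 25 encode large and 22 small subunit proteins. Measured expression played no part in the rule. A further 110 probe sets carry several gene symbols with a ribosomal protein among them, and they are not members. Many familiar ribosomal proteins, among them Rpl3, Rpl10 and Rpl36a, have no probe set with a single symbol and are not analysed here.

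The study used translating ribosome affinity purification (TRAP), in which a transgene puts a tagged ribosomal protein into 1 cell type and an antibody against the tag pulls down its ribosomes with the mRNAs on them. The 4 immunoprecipitates hold that RNA, and the 4 unbound fractions, kept as controls for the RNA of the whole tissue, are what the antibody left behind. All 8 samples came from the BAC transgenic line Hcrt JD218, named for the hypocretin gene Hcrt, whose regulatory DNA directs the tag in such lines, on a mixed Fvb and c57/bl6j background. Each sample pooled 5 adult mice of both sexes aged 6 to 12 weeks, with thalamus and hypothalamus dissected together, and 20 ng of RNA was amplified over 2 cycles and hybridised to 1 Affymetrix array. All mice carried the transgene, so the groups differ in the fraction of the lysate and not in genotype.

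A ribosome is built of a large subunit, which joins amino acids, and a small subunit, which reads the mRNA, and each holds a single copy of nearly every one of its proteins. Because the subunits are assembled in fixed proportion, their mRNAs are made and translated in concert. Most of these mRNAs begin with a cytosine followed by a run of pyrimidines, the terminal oligopyrimidine (TOP) tract, through which the kinase mTOR and the factor Larp1 set their translation. A few ribosomal proteins have a paralogue, a related gene that can take their place in the ribosome. Names can mislead: Rpl7 and Rpl7a, Rpl27 and Rpl27a, or Rpl37 and Rpl37a are unrelated proteins.

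To show what the start of these genes looks like, 30 bases around the RefSeq transcription start (10 before it, 20 from it onwards, build GRCm38.p6) are given for 5 genes with at least a 2-fold difference between the fractions and for paralogue pairs described below. Capitals mark a run of at least 6 pyrimidines that begins with C.
Rps27l, chr9:66946076-66946105, plus strand: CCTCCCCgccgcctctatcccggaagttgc
Rps27, chr3:90213629-90213658, minus strand: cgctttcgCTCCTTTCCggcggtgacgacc
Rpl22l1, chr3:28805498-28805527, plus strand: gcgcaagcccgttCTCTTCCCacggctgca
Rpl22, chr4:152324426-152324455, plus strand: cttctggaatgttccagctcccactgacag
Rps10, chr17:27635225-27635254, minus strand: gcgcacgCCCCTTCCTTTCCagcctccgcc
Rps26, chr10:128626487-128626516, minus strand: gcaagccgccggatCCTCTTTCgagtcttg
Rpl14, chr9:120571507-120571536, plus strand: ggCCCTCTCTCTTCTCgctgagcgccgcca
Rpl37, chr15:5116603-5116632, plus strand: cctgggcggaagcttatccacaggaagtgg
Where RefSeq gives a gene more than 1 start, as for Rps27l and Rpl22, the window with the lowest coordinate is shown. Rpl22 and Rpl37 show no such run in these windows, and the others do. The starts are those of the annotation and were not mapped in these samples. A window without a run therefore does not show that an mRNA lacks a TOP tract. The Rps27l run lies wholly before the start. Rpl27 and Rpl37a, which also differ by at least 2-fold, are not shown, and their windows hold no such run. Of 37 tested members with a RefSeq window, 23 (62.2%) held such a run in at least 1 window. Over all genes, 22.0% of 32851 windows held it. Among the 8490 tested genes with a window, 2239 held it. The letters CGGAAG (or CTTCCG, the same site on the other strand), a form of the site that ETS factors bind, stood between 250 bases before and 50 bases after the start in 26 of the 37 members (70.3%) and in 16.9% of all windows. They stood there in 2979 of the 8490 tested genes, so part of the distance from all windows is shared by tested genes at large. The pyrimidine runs and CTTCCG can overlap. Members with and without these letters had close values: the median log2 change was 0.46 in members with the run and 0.47 in members without it, and 0.44 in members with CGGAAG and 0.51 in members without it.

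The preparations carried the signal of the labelled cells. Hcrt measured 15.10, 15.39, 15.43 and 15.50 on the log2 scale in the immunoprecipitates, against 9.77, 10.10, 10.40 and 11.06 in the unbound fractions. The 5 hypocretin neuron markers listed (Hcrt, Pcsk1, Pdyn, Nptx2 and Lhx9) were called higher. The marker lists were chosen with earlier results of these data known, so their counts are a description and no independent support. Of all tested genes 4.74% were called higher and 44.2% lower. Markers of other cells were called lower (5 of 5 tested oligodendrocyte, 6 of 6 astrocyte and 4 of 4 microglial genes), but were not absent. The choroid plexus marker Ttr was not called (0.84, adjusted p = 0.758), and replicate 4 stood apart in it: it measured 14.99, 15.45, 15.35 and 10.19 in the immunoprecipitates, against 15.47, 15.85, 15.87 and 5.42 in the unbound fractions. Linear levels of the markers of a list were summed on each array, and the log2 of the sum is given. Such a sum leans on its brightest marker, Mbp in the oligodendrocyte list. For the oligodendrocyte markers it ranged between 13.35 and 14.66 over immunoprecipitates and between 15.94 and 16.07 over unbound arrays. For the astrocyte markers it ranged between 10.43 and 12.86 over immunoprecipitates and between 13.73 and 14.35 over unbound arrays. For the 4 microglial markers it was 7.48 to 9.94 on immunoprecipitate and 11.13 to 11.78 on unbound arrays. The part of these cells in the ribosomal protein values was not tested. Between 33.6% and 34.8% of probe sets reached a linear value of 50 on the immunoprecipitate arrays and between 40.5% and 40.9% on the unbound arrays. The authors normalized the fractions separately, so here both were brought to the same mean of 18 biotinylated hybridisation controls. On that scale the median tested gene lay at -0.85 (log2, immunoprecipitate minus unbound), and a change of a ribosomal protein is read beside this value. Another scaling moves it: the median over all tested genes was 0.08 after centring each array on its median, -0.05 after quantile normalization and -2.81 on the spiked poly-A controls.

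The changes of ribosomal protein mRNAs, immunoprecipitate minus unbound, lay above those of most tested genes. Of the 47 genes 43 had a probe set that passed the filter on low signal (22 large, 21 small subunit). Their median log2 change was 0.45, a 1.37-fold difference, against -0.85 over all 10398 tested genes, and 42 of 43 values were positive. Positive values numbered 43 with median centring and 40 with quantile normalization, but 0 on the poly-A scale, where the median was -1.51, and 37 without immunoprecipitate 1. A gene was called at a limma adjusted p under 0.05 and at least 2-fold. By that rule 7 of 43 (16.3%) were called higher and 0 lower, where 4.74% of all tested genes were called higher and 44.2% lower. Other scalings gave other counts: 40 higher with median centring (20.4% of all genes), 12 higher with quantile normalization (16.4% of all genes), and 0 higher and 35 lower on the poly-A scale. With the adjusted p alone 25 of 43 were higher, against 8.17% of all genes, and 0 were lower even at an unadjusted limma p under 0.05. In 21 of 43 every immunoprecipitate lay above every unbound fraction, against 6.53% of all genes. The distance between the ribosomal protein median and the median of all genes was 1.30 with every scaling that adds a constant to an array or a group and 0.57 with quantile normalization. In bulk samples fewer cells of a type and less of an mRNA per cell cannot be told apart. Nor can hypocretin neurons against the rest of the tissue be told apart from ribosome-bound against other RNA, since the fractions differ in both.

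**Figure D1:**
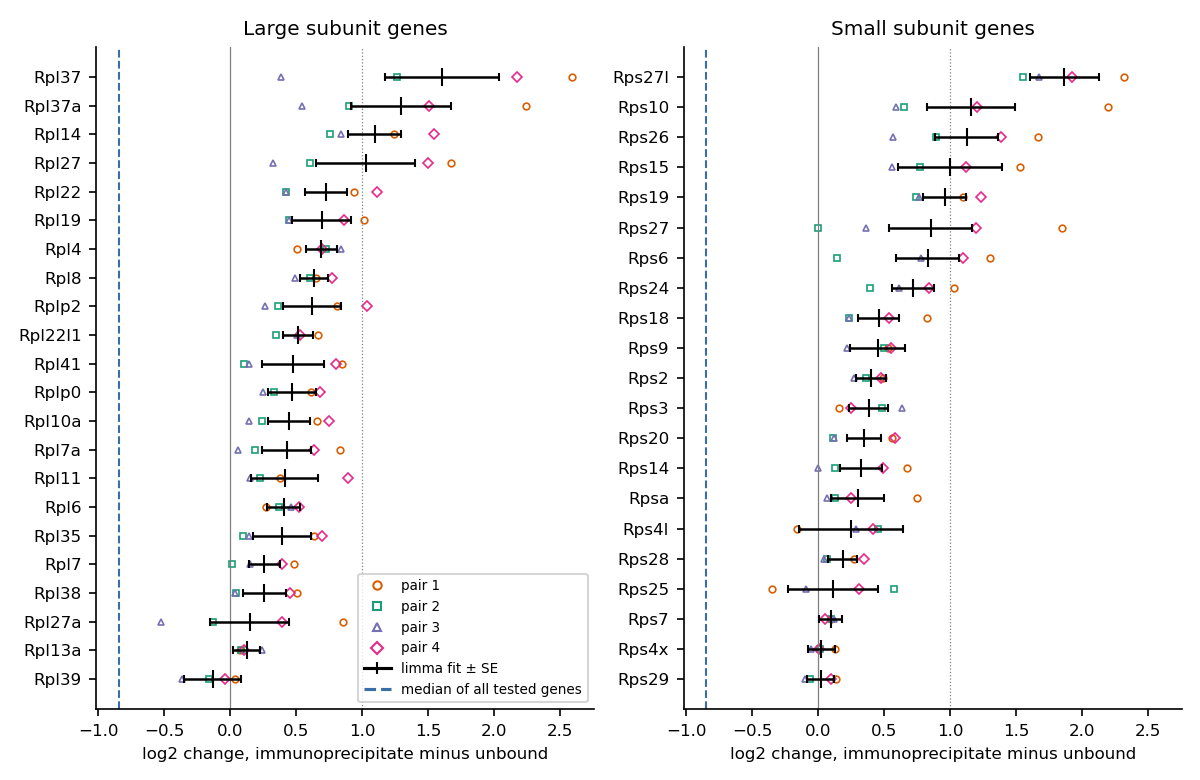
Fitted log2 change (immunoprecipitate minus unbound, horizontal axis) of each tested ribosomal protein gene, large subunit left and small subunit right. Bars are the limma estimate ± SE, open symbols are the 4 same-numbered pairs of arrays, the dotted line is a 2-fold difference and the dashed line is the median of all tested genes at -0.85. Rpl39 alone has an estimate below 0 on this scale, and on the poly-A scale every gene moves left by the same 1.97.

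Among small subunit genes, Rps27l stood highest. Rps27l, a paralogue of Rps27 that is induced by p53 in human cells, measured 12.17, 12.29, 12.38 and 11.78 in the immunoprecipitates, against 9.85, 10.74, 10.71 and 9.85 in the unbound fractions. The groups do not overlap, and the log2 change was 1.87 ± 0.26 (SE), or 3.65-fold, with an adjusted p of 0.000189 from limma. Its 3 tested probe sets were all called higher, with log2 changes between 1.68 and 1.97. Rps10, of the small subunit's head, measured 15.12, 15.25, 15.35 and 15.22 in the immunoprecipitates, against 12.92, 14.60, 14.76 and 14.02 in the unbound fractions. Its change of 1.16 ± 0.34 (adjusted p = 0.012) was shared by all 5 of its tested probe sets, which gave 1.14 to 1.40. Rps26, at the mRNA exit channel, measured 14.26, 14.38, 14.35 and 14.24 in the immunoprecipitates, against 12.60, 13.49, 13.79 and 12.86 in the unbound fractions. The immunoprecipitates lay within a narrow band for both genes, and the unbound fractions were spread over more than a doubling, with unbound 1 lowest. The Rps26 change was 1.13 ± 0.24 (adjusted p = 0.00212). On the poly-A scale all 3 of these genes had negative changes, from -0.84 for Rps26 to -0.10 for Rps27l.

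In the large subunit, Rpl37, a small zinc-binding protein, measured 11.74, 12.00, 11.66 and 11.53 in the immunoprecipitates, against 9.16, 10.73, 11.28 and 9.36 in the unbound fractions. The groups do not overlap, though unbound 3 came within 0.39 of its partner, and the change was 1.60 ± 0.43 (3.04-fold, adjusted p = 0.00855). Rpl37a, another small zinc-binding protein, measured 14.79, 14.91, 14.95 and 14.32 in the immunoprecipitates, against 12.55, 14.02, 14.40 and 12.82 in the unbound fractions. Its change was 1.29 ± 0.38 (adjusted p = 0.0127), with immunoprecipitate 4 just below unbound 3. Rpl14 measured 10.64, 10.64, 10.44 and 10.85 in the immunoprecipitates, against 9.40, 9.88, 9.61 and 9.31 in the unbound fractions. Its groups do not overlap, and it had the smallest SE of the called large subunit genes, with a change of 1.09 ± 0.20 (adjusted p = 0.00095). Rpl27 measured 14.59, 14.59, 14.54 and 13.89 in the immunoprecipitates, against 12.92, 13.99, 14.22 and 12.40 in the unbound fractions. Its groups overlap and its change of 1.02 ± 0.37 (adjusted p = 0.035) is the closest to the 2-fold line of the 7, so that it dropped under a threshold when immunoprecipitate 1, 2 or 3 or unbound 1 or 4 was left out. Rpl14 did so without immunoprecipitate 1, unbound 3 or unbound 4, and Rps10 without unbound 1. These 4 large subunit genes likewise had negative changes on the poly-A scale (-0.94 to -0.36).

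Just under the 2-fold line lay Rps15 and Rps19, both small subunit proteins. Rps15 had a change of 1.00 ± 0.39 (1.995-fold, adjusted p = 0.0479), with overlapping groups. Rps19 measured 14.32, 14.46, 14.55 and 14.40 in the immunoprecipitates, against 13.22, 13.71, 13.78 and 13.16 in the unbound fractions. Its groups are well apart and its change was 0.96 ± 0.16 (adjusted p = 0.00059), a smaller p than that of 6 of the 7 called genes. Rps6, the small subunit protein phosphorylated by S6 kinase downstream of mTOR, had an mRNA change of 0.83 ± 0.24 (adjusted p = 0.0114). It measured 10.97, 10.17, 10.62 and 11.13 in immunoprecipitates and 9.67, 10.03, 9.84 and 10.03 in the unbound fractions, with no overlap.

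At the other end were genes that the test did not tell apart between the fractions. In the small subunit Rps29, Rps4x, Rps7, Rps25 and Rps28 had the lowest changes, from 0.02 to 0.19, and in the large subunit Rpl39, Rpl13a, Rpl27a, Rpl38 and Rpl7 had the lowest, from -0.13 to 0.26. None of these 10 had an adjusted p under 0.05 in the brightest probe set, which stands for the gene. Above a mean log2 signal of 15, 0 of 96 tested probe sets of other genes were called in either direction. Rpl39, Rps25 and Rpl27a were each read by 1 tested probe set, and these were dim. Their mean levels were 7.16, 8.37 and 9.88 in the immunoprecipitates and 7.29, 8.26 and 9.74 in the unbound fractions. The median member level was 14.66 to 14.81 on the immunoprecipitate arrays, so these values say little about the genes themselves. Dimmer probe sets of Rpl13a, Rpl7, Rps7 and Rps28 had an adjusted p under 0.05, as given below for the first 3 genes and with changes of 0.55 and 0.50 for Rps28 (adjusted p = 0.0143 and 0.0119). Rps4x, an X-linked small subunit protein, measured 15.21, 15.13, 15.09 and 15.32 in the immunoprecipitates, against 15.08, 15.11, 15.14 and 15.32 in the unbound fractions. Its groups overlap fully, and its change was 0.02 ± 0.10 (adjusted p = 0.844). Rps7, a small subunit protein that can also bind Mdm2, measured 14.91, 14.91, 14.92 and 14.88 in the immunoprecipitates, against 14.80, 14.80, 14.80 and 14.83 in the unbound fractions. The groups of Rps7 do not overlap, but lie only 0.09 apart (adjusted p = 0.369). Rpl39, a very small protein lining the exit tunnel, had the only negative change, -0.13 ± 0.22 (adjusted p = 0.605), and its sign turned to 0.79 with median centring and 0.99 with quantile normalization. Rps29 (-0.12), Rps4x (-0.08) and Rps7 (-0.02) had negative values after quantile normalization.

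Members with roles of their own lay near the middle. Rpl10a, the protein that carries the tag in the published TRAP lines, measured 14.90, 15.02, 15.04 and 14.99 in the immunoprecipitates, against 14.25, 14.78, 14.89 and 14.25 in the unbound fractions. The groups do not overlap, and the change of 0.45 ± 0.16 (adjusted p = 0.0334) equals the median of the family to 2 decimals. Whether its probe set also reads RNA of the transgene was not tested. Rplp0 and Rplp2, proteins of the stalk that recruits elongation factors, had changes of 0.47 ± 0.18 (adjusted p = 0.0462) and 0.62 ± 0.22 (adjusted p = 0.0322), both with overlapping groups. Rpsa, which is also known as the laminin receptor precursor, had a change of 0.30 ± 0.20 (adjusted p = 0.214). Rpl11, a protein that binds Mdm2 when ribosome assembly is disturbed, had a change of 0.41 ± 0.25 (adjusted p = 0.179). Several other large subunit proteins had tight values: Rpl8 had a change of 0.63 ± 0.11 (adjusted p = 0.000523), Rpl4 of 0.69 ± 0.12 (adjusted p = 0.000658) and Rpl6 of 0.40 ± 0.12 (adjusted p = 0.0161), each without overlap. All members named in this paragraph had negative changes on the poly-A scale.

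Large and small subunit genes had similar medians. The median log2 change was 0.47 over 22 large subunit genes and 0.40 over 21 small subunit genes. Called higher were 4 of 22 large subunit genes (18.2%) and 3 of 21 small subunit genes (14.3%), and groups did not overlap in 10 large and 11 small subunit genes. The difference of the medians was 0.07, or 0.42 over the 15 genes left without suffixed probe sets. The subunits stayed close in pairs 1 to 3 and were farther apart in pair 4: the large and small subunit medians were 0.66 and 0.67, 0.34 and 0.36, 0.26 and 0.27, and 0.72 and 0.54 in pairs 1 to 4. Between pairs the SD was 0.23 for the large and 0.18 for the small subunit median. Both medians are read on the same arrays and moved together, so these SDs do not measure the spread of their difference. When each array was left out in turn, the difference ran from -0.0116 to 0.163. On the poly-A scale the medians were -1.50 for the large and -1.56 for the small subunit, and their difference is the same with any constant shift.

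**Figure D2:**
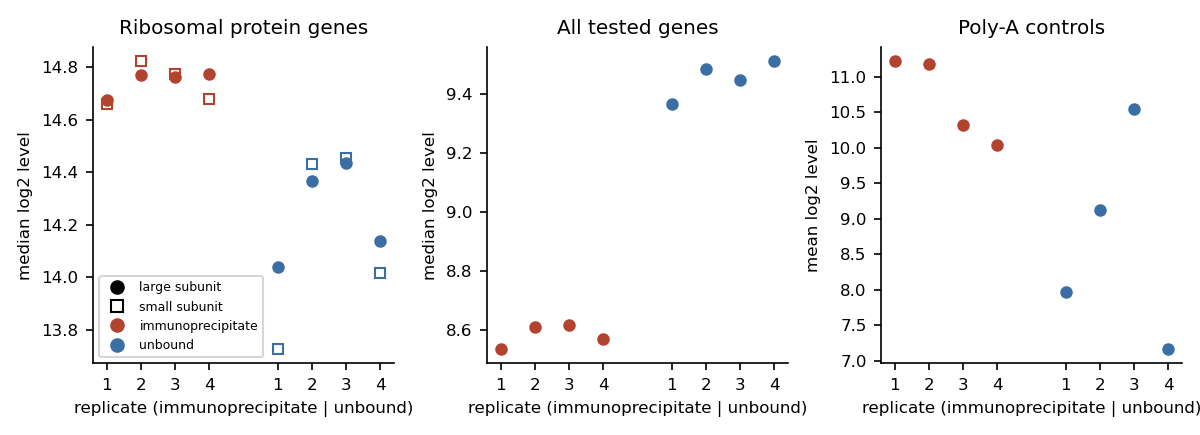
Left, median log2 level of the tested large (filled) and small (open) subunit genes on each array. Middle, median over all tested genes. Right, mean of 24 poly-A control probe sets; in each panel the 4 immunoprecipitates stand left of the 4 unbound fractions. Both subunits lie within 14.66 and 14.82 in the immunoprecipitates and are lower in unbound 1 and 4 than in unbound 2 and 3, a split that the middle panel does not show.

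The spread between arrays sat mainly in the unbound fractions. The median level of the members was 14.66, 14.81, 14.77 and 14.74 in the immunoprecipitates, against 14.03, 14.39, 14.45 and 14.11 in the unbound fractions. Unbound 1 and 4 both lay below unbound 2 and 3 in 31 of 43 members (72.1%), whereas this held for 27.8% of all tested genes. The median SD of a member was 0.14 among the immunoprecipitates and 0.34 among the unbound arrays, and 37 of 43 members varied more among the unbound fractions. Over all tested genes the median SD was 0.39 among the immunoprecipitates and 0.35 among the unbound arrays. The poly-A controls, bacterial transcripts of a kind spiked in before amplification, averaged 11.22, 11.18, 10.33 and 10.04 in the immunoprecipitates, against 7.97, 9.12, 10.55 and 7.17 in the unbound fractions, so that unbound 1 and 4 were also lowest there. Their part in the result was not tested. With only replicates 2 and 3 of each group, and the scaling constants set anew on those arrays, the median member change was 0.52, against -0.62 over all tested genes. In that setting 3 of 43 genes stayed called higher, a share no larger than the 7.43% of all tested genes called higher there. Rpl27, Rpl37a, Rps10 and Rps26 lost their calls. RNA integrity, taken as the 3′ minus 5′ signal, for Actb was 3.71 ± 0.46 on the immunoprecipitate arrays and 3.39 ± 0.33 on the unbound arrays (SD, n = 4 each, two-sided exact permutation p = 0.314). For Gapdh it was 2.80 ± 1.14 on the immunoprecipitate arrays and 2.34 ± 0.68 on the unbound arrays (SD, n = 4 each, two-sided exact permutation p = 0.457), with replicate 4 highest in each group. The Gapdh value was higher in the immunoprecipitate in 4 of 4 same-numbered pairs, and the Actb value in 3 of 4.

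Paralogues were compared as the difference of both genes within each array, which no constant shift of an array can move, and 4 pairs could be measured. The level of this difference depends on the probes, so only its change between the fractions is read. For Rps27l over Rps27 the difference was 5.12, 6.07, 6.02 and 5.35 in the immunoprecipitates, against 4.66, 4.52, 4.70 and 4.62 in the unbound fractions. The groups do not overlap, the difference changed by 1.01, and all 4 pairs of arrays ran that way. With quantile normalization, which can move it, the change was 0.30 (adjusted exact permutation p = 0.314). The two-sided exact permutation p was 0.0286, the smallest that 4 arrays against 4 allow, and it was 0.114 after Benjamini-Hochberg adjustment over the 4 pairs, which misses the threshold. Rps27 itself measured 7.04, 6.22, 6.36 and 6.42 in the immunoprecipitates, against 5.19, 6.22, 6.00 and 5.23 in the unbound fractions. Only 2 of the 4 unbound values reached a linear 50, and with the others raised to it Rps27 was at least 1.55-fold higher in the immunoprecipitates (adjusted p = 0.0368), so the change of 1.01 for the pair is not an exact ratio.

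**Figure D3:**
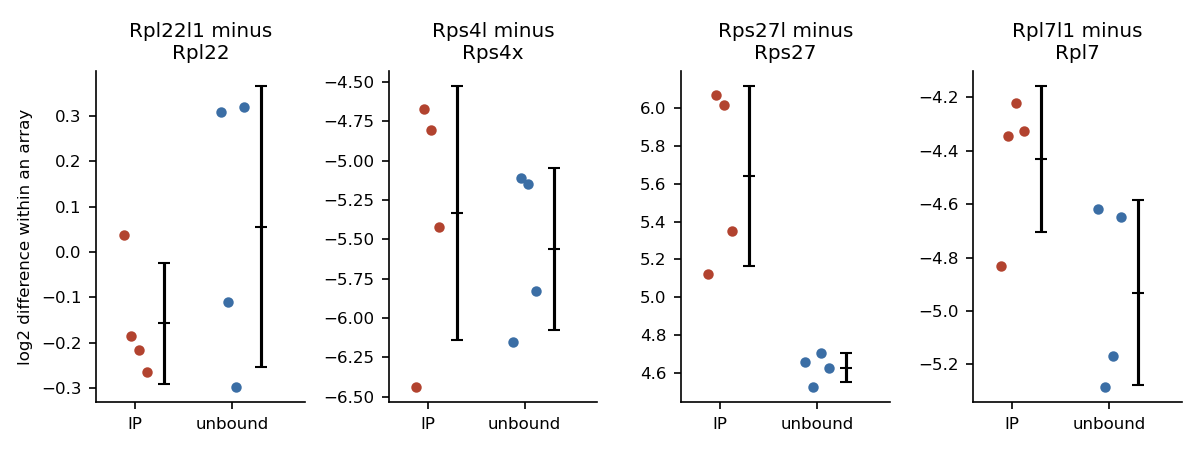
Difference in log2 level between the paralogues of a pair within each array (points), with mean ± SD beside them, for 4 immunoprecipitates (IP, left in each panel) and 4 unbound fractions. Each panel has its own vertical axis, and the Rps27l to Rps27 panel alone shows groups that do not overlap.

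The other pairs overlapped between the fractions. Rpl22l1, a paralogue of the RNA-binding Rpl22 that can replace it, measured 14.73, 14.47, 14.47 and 14.47 in the immunoprecipitates, against 14.07, 14.12, 13.97 and 13.94 in the unbound fractions, a change of 0.51 ± 0.11 (adjusted p = 0.00274). Rpl22 measured 14.70, 14.65, 14.69 and 14.73 in the immunoprecipitates, against 13.76, 14.23, 14.27 and 13.62 in the unbound fractions, a change of 0.72 ± 0.16 (adjusted p = 0.00268). Both genes thus lay higher in all 4 immunoprecipitates, and their difference changed by -0.21 (two-sided exact permutation p = 0.286, adjusted 0.381). Its sign turned to 0.50 when the probe sets of each gene were averaged. Rps4l measured 8.77, 10.46, 10.28 and 9.90 in the immunoprecipitates, against 8.93, 10.01, 9.99 and 9.49 in the unbound fractions. Its difference from Rps4x changed by 0.23 (two-sided exact permutation p = 0.629, adjusted 0.629), or by 1.10 with quantile normalization (adjusted 0.171). Rpl7l1, a gene outside the rule that was added for its relation to Rpl7, had a change of 0.76 ± 0.21 against 0.26 ± 0.12 for Rpl7, and the pair's difference changed by 0.50 (two-sided exact permutation p = 0.0857, adjusted 0.171). This was 1.33 with quantile normalization (adjusted 0.114) and -0.50 with probe sets averaged. The other tested probe sets gave 0.21 and -0.15 for Rpl7l1, and 0.86 and 1.21 for Rpl7. A p that misses the threshold at this size does not show that paralogues are alike. Rpl39l and Rpl3l, paralogues known mainly from testis and from muscle, did not reach a linear 50 on any array, and neither did the only member probe sets of Rpl12 and Rps16.

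Probe sets of the same gene did not always agree. At the level of probe sets 21 of 82 were called higher (25.6%) and 3 lower, where 4.88% of all tested probe sets were called higher and 45.1% lower, and the median change was 0.58. Of the 19 genes read by more than 1 tested probe set, 5 had values in both directions, but 0 had calls in both. The probe set with the highest mean, which stands for the gene here, gave the smallest change in 11 of the 19 and the largest in 2. Rps7 shows this: its brighter probe set gave 0.09 and the other 1.10, which was called higher (adjusted p = 0.000159). Rpl13a ranged from 0.12 to 1.08 over 4 probe sets, Rpl7 from 0.26 to 1.21 over 3 and Rps18 from 0.46 to 1.23 over 3, in each case with the brightest lowest. Ribosomal protein genes have many processed pseudogenes, and 67 of the 82 probe sets carry a suffix of the manufacturer (_a, _s or _x). The suffixes mark probes shared by several transcripts, of the same gene (_a) or of different genes, and were pooled here. Of these 67 probe sets 19 were called higher and 2 lower, against 2 and 1 of the 15 without a suffix. Values of single genes are therefore uncertain where copies share probes.

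**Figure D4:**
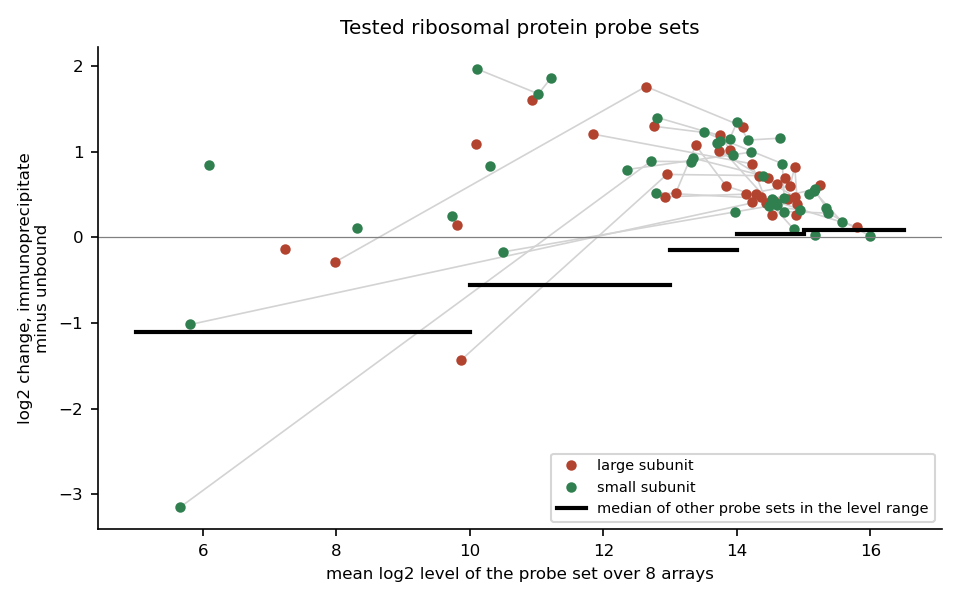
Log2 change (immunoprecipitate minus unbound, vertical axis) of each tested ribosomal protein probe set against its mean log2 signal over 8 arrays (horizontal axis), with thin lines joining probe sets of a gene. Black bars are medians of all other tested probe sets in the same signal range; member points lie above them in most ranges and move towards 0 at the brightest signals.

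The 3 probe sets called lower belong to genes whose other tested probe sets were positive. The Rpl22 probe set called lower measured 9.12, 9.59, 8.96 and 8.95 in the immunoprecipitates, against 10.52, 10.58, 10.17 and 11.07 in the unbound fractions, a change of -1.43 ± 0.25 (adjusted p = 0.000674), while the other Rpl22 probe sets gave 0.72 and 0.74. The Rps24 probe set called lower measured 6.09, 3.30, 3.84 and 3.10 in the immunoprecipitates, against 7.48, 7.41, 6.26 and 7.79 in the unbound fractions. Only 1 immunoprecipitate reached a linear 50, so it was at least 2.80-fold lower (adjusted p = 0.00142), while the other 4 tested Rps24 probe sets gave 0.72 to 0.93. The Rps20 probe set called lower measured 5.80, 4.45, 5.37 and 5.59 in the immunoprecipitates, against 6.997, 5.93, 5.56 and 6.79 in the unbound fractions, with overlap. With values under a linear 50 raised to it in both fractions it was 1.59-fold lower, which is not a lower bound. Its limma adjusted p was 0.0477, and the other tested Rps20 probe sets gave 0.35 and 0.56. A further Rps20 probe set did not pass the filter, with a mean of 3.55 in the immunoprecipitates, all under a linear 50, and 5.24 in the unbound fractions. Which transcript each one reads was not tested.

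Signal strength and gene length both went along with the change over all genes. With a mean log2 signal between 14 and 15, the median change was 0.47 for 33 member probe sets, against 0.05 for all others there, and above 15 it was 0.32 for 10 members, against 0.08 for the others. Between 13 and 14 the members' median was 1.02 (14 probe sets) and that of the others -0.15, between 10 and 13 it was 1.15 (16) and -0.56, and below 10 it was -0.13 (9) and -1.10. Ribosomal protein genes are short, with a median span of 3352 bp in RefSeq (941 to 9647) against 25699 bp over all tested genes, and 42 of 43 fall in the shortest quintile of all. The median change ran from -0.13 in the shortest quintile of tested genes to -1.54 in the longest. Of the members 16.3% were called higher and 97.7% were positive, against 9.15% and 45.6% of the 601 other genes with a span between the quartiles of the members, whose median was -0.13.

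Other lists of the translation machinery had lower medians than the ribosomal proteins, except that with quantile normalization the mitochondrial list stood higher (0.87, against 0.52 for the cytosolic genes). Of 76 tested mitochondrial ribosomal proteins, which serve the separate ribosome of the mitochondrion, 5 were called higher (Mrpl54 1.88, Mrpl33 1.36, Mrps34 1.28, Mrpl38 1.08, Mrpl43 1.07) and Mrpl11 lower (-1.01), a share called higher of 6.58% that is near the 4.74% of all tested genes. Their median was 0.29, or -1.68 on the poly-A scale. Of 54 genes with the symbol stem of initiation or elongation factors, 0 were called higher and 7 lower, against 44.2% of all tested genes called lower. Among the 7 were Eif3a (-1.44), Eif5a2 (-1.45), Eif5b (-1.12) and Eif4g3 (-1.12). The median of the 54 was -0.14, and it turned to 0.78 with median centring and 0.25 with quantile normalization. At an unadjusted limma p under 0.05, 8 of these 54 were higher and 19 lower. Eef1aknmt, also called lower, is a methyltransferase that acts on an elongation factor and is in the list by its symbol. Of 13 other mRNAs known to begin with a TOP tract 0 were called higher and Pabpc1, the poly-A binding protein, lower (-1.19), and the elongation factors Eef1a1 (0.10), Eef2 (0.09) and Eef1b2 (0.27) were not called. The median of these 13 was 0.09, and 2 were higher and 2 lower at an unadjusted limma p under 0.05. Fau, whose product is cleaved to a small subunit protein and which the symbol rule leaves out, was called higher with a change of 1.02 ± 0.28 (adjusted p = 0.00887).

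Genes of ribosome assembly also had a lower median than the ribosomal proteins, though on this scale it lay above that of all tested genes (-0.85). Of all tested genes 4.74% were called higher and 44.2% lower. Of 30 assembly genes 0 were called higher and 2 lower, the nucleolar factors Rrs1 (-1.21) and Bms1 (-1.14). Their median was -0.22, and 3 were higher and 4 lower at an unadjusted limma p under 0.05. Of 35 proteasome subunits, another set of short and abundant mRNAs of a large complex, 0 were called in either direction by limma (3 higher and 7 lower at an unadjusted p under 0.05), with a median of 0.05 that was -1.92 on the poly-A scale and -0.02 among probe sets without a suffix. The 97 tested probe sets with several symbols, 1 of them a ribosomal protein's, stood beside the members' own as follows: the members' median was 0.58 with 25.6% called higher, against 0.52 with 12 called higher (12.4%) and 5 lower. A constant shift moves every list alike, so the signs of these medians hold for the biotinylated control scale and turn where another scaling moves them past 0. All these lists are given as counts and medians only, and no test set one list against another.

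**Figure D5:**
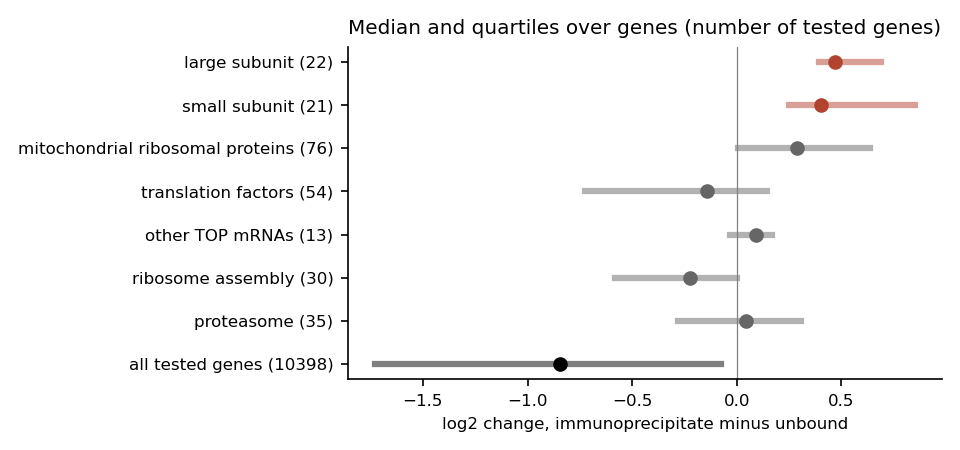
Median (point) and quartiles (bar) of the log2 change (immunoprecipitate minus unbound, horizontal axis) over the tested genes of each list, with the number of genes in brackets. The subunit medians, 0.47 and 0.40, lie right of the other lists and of all tested genes at -0.85. On the poly-A scale every list shifts left by the same amount and all medians are negative, and with quantile normalization the mitochondrial list (0.87) lies right of both subunits (0.52 and 0.42).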

How the data were processed

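The authors deposited 1 value for each probe set on each array, taken here to be on the log2 scale (2.14 to 16.48). GCRMA is named in the submitters' processing notes, with no version given in the sources used here, and per the labels' design text each group was normalized separately. A constant was therefore taken from each group to equalise its mean over 18 biotinylated controls, which as deposited differed by 0.02. Control probe sets (64) were left out. Probe sets with a linear value of at least 50 on at least 4 arrays (17865) entered a limma fit (version 3.58.1, R 4.3.3, lmFit, eBayes with a trend, no block), with Benjamini-Hochberg adjustment over all of them. The number of arrays limits the precision.

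A gene is represented by its tested probe set with the highest mean. Probe sets had 1 gene symbol (34958), several (932) or were unlisted (9211). Where some arrays of a group lay under 50, values were raised to 50 for an "at least" fold. For the Rps20 probe set both groups held such values, so that fold is not a bound. The text names, per subunit, the 5 highest and 5 lowest members, all called members, paralogue pairs, Rpl10a, stalk proteins and Rpsa; other genes were chosen after their values were seen. Members and lists were chosen with earlier results of these data known.

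By their labels, same-numbered arrays hold both fractions of a preparation. Same-numbered arrays deviated together (correlations 0.44, 0.33, 0.25 and 0.59), and replicate 3 correlated about as well with unbound 2 (0.24). A fit with a replicate block, other scalings, filters and probe set rules and leaving out each array were alternatives. The fit and the permutation test were tested on simulated data. Sequences, gene spans and starts are from RefSeq (GRCm38.p6). Plots used matplotlib 3.10.9 in Python 3.11.15.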

Additional observations from a re-analysis of the deposited data

Results flagged for a closer look

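Of 74 groups of 4 arrays examined for a value far from the others, 6 held one, and chance flags about 1 in 20 groups. Rpl22l1 measured 14.73 in immunoprecipitate 1, while the other immunoprecipitates lay at 14.47. Rpl27 measured 13.89 in immunoprecipitate 4, against 14.54 to 14.59 in the others. Rpsa measured 13.21 in unbound 1, against 13.96 to 14.11 in the other unbound fractions. The median level of the large subunit genes was 14.67 in immunoprecipitate 1 and 14.76 to 14.77 in the other immunoprecipitates. The 3′ minus 5′ signal of Gapdh was 4.50 in immunoprecipitate 4, against 2.12 to 2.31 in the other immunoprecipitates, and 3.36 in unbound 4, against 1.94 to 2.08 in the other unbound fractions.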

How the results depend on the processing

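The scaling sets the direction, since the median of all genes moves with it. With median centring 40 genes and 73 probe sets were higher and 1 probe set lower, the medians of all members, large and small subunit were 1.38, 1.39 and 1.33, and Rpl39 (0.79) and translation factors (0.78) changed sign. With quantile normalization 12 genes were higher and 1 probe set lower, and translation factors (0.25), Rpl39 (0.99), Rps29 (-0.12), Rps4x (-0.0826), Rps7 (-0.0231) and the integrity differences of Actb (-0.33) and Gapdh (-0.049) changed sign. The poly-A shift, chosen after seeing the data because 3 Trp controls lay at the lowest values (so that the planned shift with them was not run), called 0 genes and 0 probe sets higher, 35 genes and 59 probe sets lower. Its medians were -1.51 for members, -1.50 for large and -1.56 for small subunit, -1.68 for mitochondrial ribosomal proteins and -1.92 for the proteasome. Changes on that scale were -1.52 for Rpl10a, -1.84 for Rpl13a, -0.87 for Rpl14, -1.24 for Rpl22, -1.46 for Rpl22l1, -0.94 for Rpl27, -1.82 for Rpl27a, -0.36 for Rpl37, -0.67 for Rpl37a, -1.71 for Rpl38 and Rpl7, -1.21 for Rpl7l1, -1.50 for Rplp0, -1.35 for Rplp2, -0.81 for Rps10, -0.97 for Rps15, -1.01 for Rps19, -1.85 for Rps25, -0.84 for Rps26, -1.11 for Rps27, -0.10 for Rps27l, -1.78 for Rps28, -1.95 for Rps29, -1.71 for Rps4l, -1.94 for Rps4x, -1.87 for Rps7 and -1.67 for Rpsa. Without the filter 1 gene and 6 probe sets were lower, with a minimum of 100 1 probe set was lower, and with no fold threshold 25 genes and 52 probe sets were higher. When probe sets were averaged per gene, the Rpl22l1 to Rpl22 contrast was 0.50 and the Rpl7l1 to Rpl7 contrast -0.50. Without suffixed probe sets, which leaves 15 member genes, 2 genes and 2 probe sets were higher, 1 gene and 1 probe set lower, the large minus small subunit difference was 0.42, the proteasome median was -0.0167 and no paralogue pair was left. With replicates 2 and 3 only, also chosen after seeing the data, 3 genes and 13 probe sets were higher and 1 lower, where 7.43% of all tested genes were higher. In that setting the subunit difference was -0.0157, the Rpl22l1 to Rpl22 contrast 0.00348, the integrity difference of Actb -0.0383 and Rpl27a -0.12. Leaving out each array gave 5 to 10 genes higher and 0 lower, 13 to 27 probe sets higher and 2 to 3 lower, medians of 0.35 to 0.60 (large 0.36 to 0.62, small 0.28 to 0.52) and a subunit difference of -0.0116 to 0.163. The Rps4l to Rps4x contrast was then 0.00562 to 0.596, the integrity difference of Gapdh -0.108 to 0.80, the median of translation factors -0.264 to 0.0217 and of the proteasome -0.0834 to 0.204. Single genes with values on both sides of 0 were Rpl13a (-0.0563 to 0.284), Rpl27a (-0.0498 to 0.344), Rpl39 (-0.282 to 0.00828), Rps25 (-0.20 to 0.524), Rps29 (-0.0923 to 0.144), Rps4x (-0.131 to 0.183) and Rps7 (-0.0574 to 0.278). The replicate block called 7 genes higher and 0 lower and changed no call of a named gene. The cause of these shifts was not tested.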
